A study of Homo sapiens with 6 samples.

Results

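The genes described here are those of cholesterol handling: the enzymes that build it, the SREBP system that controls them, and the proteins that take it up, move it, store it and export it. They were chosen as a list of 32 gene symbols, and a gene counted as measured when at least 1 probe set (a group of probes on the array that together report 1 transcript) was annotated to that symbol alone. This held for 30 of the 32 genes, out of 19775 genes in all. FDFT1 and CYP51A1 had no such probe set and were not analysed here. Where a gene had several probe sets, the one with the highest mean over all arrays stood for it. The 30 genes comprise 18 synthesis enzymes, 4 SREBP control genes, 6 genes of uptake, transport and storage, and 2 efflux transporters.

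The arrays hold total RNA of the SNU-449 line, derived from a human hepatocellular carcinoma, on an Affymetrix platform. The 3 arrays of the control group are labelled as cells with an empty vector and the 3 arrays of the other group as cells that overexpress USP48, a ubiquitin-specific protease. Per the labels, the USP48 lentivirus was applied at an MOI of at least 90, puromycin was used to select a stable line, and the medium contained 10% fetal bovine serum, a source of lipoprotein cholesterol. The promoter of the vector is not stated, nor whether the line is 1 clone or the replicates separate cultures, and p-values therefore reflect no more than the spread among the arrays, which may be technical. USP48 was not called higher by any of its 5 probe sets, and 2 of them were called lower, so the groups are named by their labels throughout.

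Cells make cholesterol from acetyl-CoA by way of mevalonate, farnesyl diphosphate, squalene and lanosterol. When sterols in the endoplasmic reticulum are low, the escort protein SCAP carries the precursor of the transcription factor SREBP2 (gene SREBF2) to the Golgi, where it is cleaved and becomes active. When sterols are high, INSIG proteins hold SCAP back. Liver X receptors respond to oxysterols and induce the efflux transporters ABCA1 and ABCG1 and the ubiquitin ligase MYLIP, which sends lipoprotein receptors for degradation.

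Promoters of 26 of the 30 measured genes were found in the RefSeq table of build GRCh38.p14, in windows of 300 bases that run from 250 bases before the start site to 50 after it. They are shown because SREBP2 acts at many of these promoters together with NF-Y, a factor that binds CCAAT boxes. Each is written 5′ to 3′ on the gene's own strand. Capitals mark the SREBP element TCACNCCAC, a looser form of it, TCANNCCAC, that was added after the first search, and the NF-Y box CCAAT, each on either strand. The looser form contains every match of the stricter one, so the capitals overlap there. SREBF2 was chosen as the only one of these 26 genes with the stricter element, INSIG1 for the looser form alone, FDPS, DHCR7 and STARD4 for CCAAT boxes without either form, and NPC1 as a gene whose value was higher in the USP48-labelled arrays.
SREBF2, chr22:41832855-41833154, plus strand: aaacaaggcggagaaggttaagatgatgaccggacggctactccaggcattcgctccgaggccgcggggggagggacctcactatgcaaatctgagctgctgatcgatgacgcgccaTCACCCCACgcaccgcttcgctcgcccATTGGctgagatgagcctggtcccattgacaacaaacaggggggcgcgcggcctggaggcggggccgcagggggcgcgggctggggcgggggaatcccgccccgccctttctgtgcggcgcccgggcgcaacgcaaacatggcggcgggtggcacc
INSIG1, chr7:155297628-155297927, plus strand: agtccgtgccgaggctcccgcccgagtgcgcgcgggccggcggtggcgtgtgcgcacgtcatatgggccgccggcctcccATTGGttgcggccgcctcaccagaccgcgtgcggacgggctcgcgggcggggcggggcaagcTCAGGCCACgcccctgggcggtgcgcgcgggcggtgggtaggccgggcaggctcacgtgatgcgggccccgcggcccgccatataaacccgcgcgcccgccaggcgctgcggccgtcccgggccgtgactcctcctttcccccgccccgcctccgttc
FDPS, chr1:155308616-155308915, plus strand: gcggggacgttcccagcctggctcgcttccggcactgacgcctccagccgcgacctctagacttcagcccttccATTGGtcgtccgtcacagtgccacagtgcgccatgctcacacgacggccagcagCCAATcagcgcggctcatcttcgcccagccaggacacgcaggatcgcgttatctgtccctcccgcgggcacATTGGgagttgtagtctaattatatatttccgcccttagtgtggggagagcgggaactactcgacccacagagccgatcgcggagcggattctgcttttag
DHCR7, chr11:71448344-71448643, minus strand: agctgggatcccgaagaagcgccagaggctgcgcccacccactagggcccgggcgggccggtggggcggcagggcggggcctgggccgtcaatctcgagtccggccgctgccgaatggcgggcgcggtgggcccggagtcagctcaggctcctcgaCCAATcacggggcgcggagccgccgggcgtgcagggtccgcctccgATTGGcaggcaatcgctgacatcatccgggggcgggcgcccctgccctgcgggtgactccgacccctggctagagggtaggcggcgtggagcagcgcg
STARD4, chr5:111512486-111512785, minus strand: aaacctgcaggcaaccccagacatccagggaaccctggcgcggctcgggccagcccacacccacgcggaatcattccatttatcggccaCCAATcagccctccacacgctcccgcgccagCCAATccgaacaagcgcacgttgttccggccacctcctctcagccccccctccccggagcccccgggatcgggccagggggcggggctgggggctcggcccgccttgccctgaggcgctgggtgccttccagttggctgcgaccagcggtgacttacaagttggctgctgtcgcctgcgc
NPC1, chr18:23586457-23586756, minus strand: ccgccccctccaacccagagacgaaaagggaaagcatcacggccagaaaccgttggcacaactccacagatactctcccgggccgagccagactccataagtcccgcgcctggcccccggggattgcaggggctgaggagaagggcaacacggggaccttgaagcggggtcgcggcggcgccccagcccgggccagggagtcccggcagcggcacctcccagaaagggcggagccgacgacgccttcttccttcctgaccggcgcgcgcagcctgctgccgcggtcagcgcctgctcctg

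The SREBP element of SREBF2 began 133 bases before the start site and its CCAAT box, on the opposite strand, 106 bases before it. The looser element of INSIG1 began 108 bases before the start site. FDPS held 3 CCAAT boxes, and DHCR7 and STARD4 held 2 each. CCAAT stood in at least 1 window of 20 of the 26 genes, including 14 of 16 synthesis enzymes, against 39.7% of all 27305 genes in the table. By window the shares were 22 of 35 (62.9%) for the measured genes and 34.6% for all 35116 windows. The Sp1 box GGGCGG was found in 24 of the 26 genes, against 48.3% of all genes, and in 31 of 35 windows (88.6%), against 45.0% of all windows. TCACNCCAC was found in 1 of the 26 genes and TCANNCCAC in 2, against 1.39% and 4.74% of all genes. Neither form was found in any of the 16 synthesis enzymes. The shares of windows were 2.86% and 5.71% for the measured genes, against 1.13% and 3.82% of all windows. The liver X receptor direct repeat with a spacer of 4 bases, searched without mismatch on both strands, was found in no window of the measured genes and in 0.0199% of all windows. A match describes these letters in these windows and was not tied to binding.

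Most cholesterol genes had lower values in the USP48-labelled arrays. Of the 30 genes, 23 fell, 2 rose and 5 did not pass the test (limma, Benjamini-Hochberg adjusted p under 0.05 over all genes). Over all genes, 29.8% were called, 14.1% lower and 15.7% higher. The median log2 difference, USP48-labelled minus empty vector, was −0.42 over the 30 genes, and 0.05 over all 19775 genes. All 3 USP48-labelled arrays lay below all 3 empty vector arrays for 23 of the 30 genes, against 19.1% of all genes, and above them for 3, against 23.8%. By the brightest probe sets SQLE alone changed at least 2-fold, against 3.74% of all genes that passed the test with at least that size. Probe sets of INSIG1, MYLIP and SOAT1 with a lower mean over all arrays changed by as much. With the mean of all probe sets INSIG1 was at −1.03 and SQLE at −0.76. The count of 23 was 15 without empty vector replicate 2 and 15 without USP48 overexpression replicate 1. It was between 19 and 20 without any other single array. The number of all genes called lower also fell, from 2794 with every array. It was 2179 without empty vector replicate 2 and 2248 without USP48 overexpression replicate 1.

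**Figure D1:**
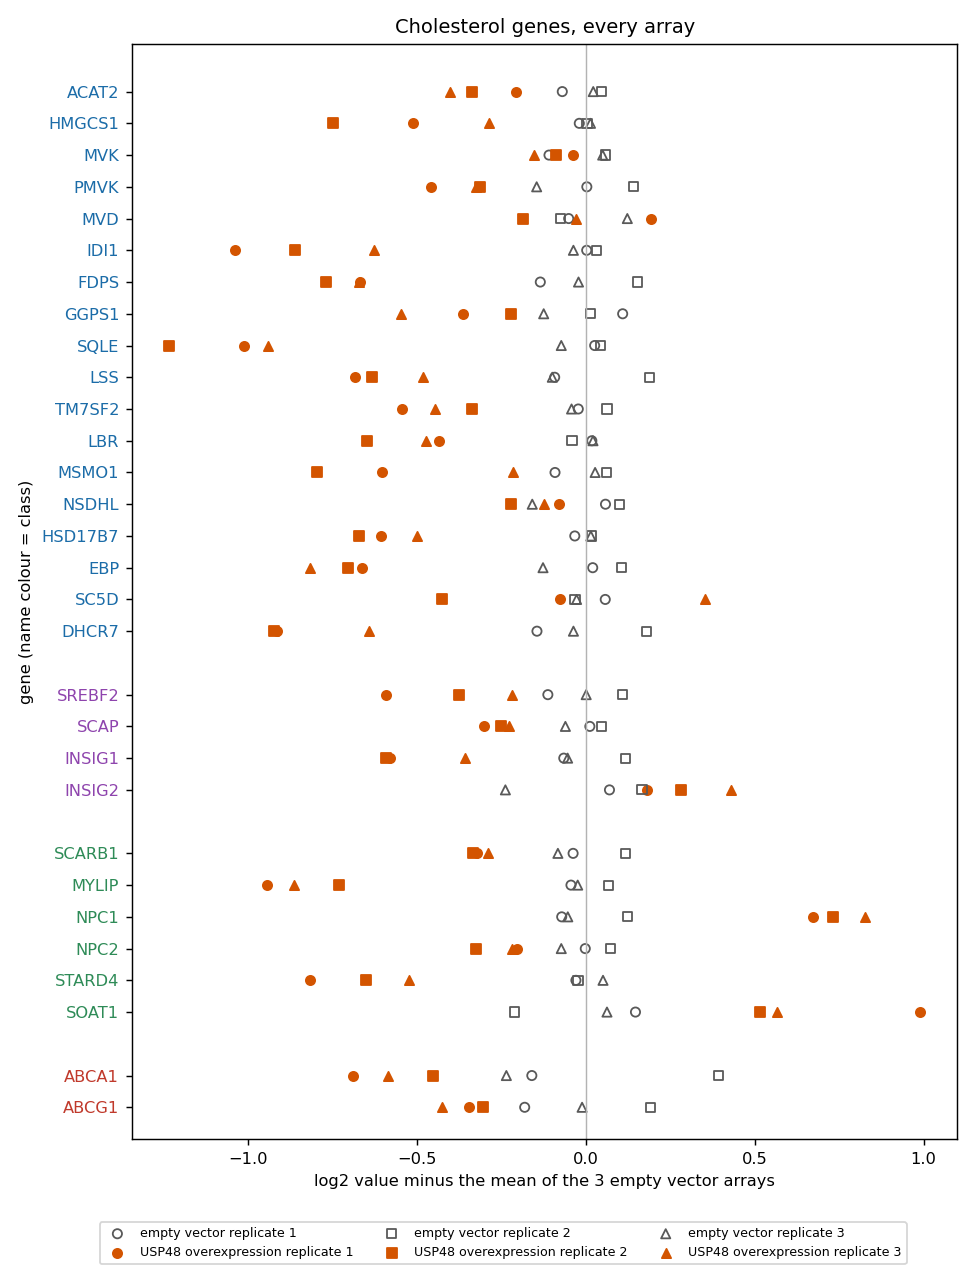
Value of each of the 30 genes on every array, as the log2 value minus the mean of the 3 empty vector arrays; open grey symbols are empty vector arrays, filled orange symbols USP48-labelled arrays, and the shape gives the replicate number. The USP48-labelled arrays lie to the left of all empty vector arrays for 23 genes and to the right for INSIG2, NPC1 and SOAT1.

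The arrays also differed in their controls. The 18 hybridization control probe sets, which report labelled RNAs added before hybridization, averaged 9.79 ± 0.04 for the empty vector and 10.09 ± 0.10 for the USP48-labelled group (log2, SD, n = 3 each; exact permutation p = 0.1, two-sided, the lowest possible with this design). Scaling on them lowers every log2 difference by 0.29, which moves the median of all genes from 0.05 to −0.24 and the share called lower from 14.1% to 37.9%. GAPDH, whose 5′ minus 3′ difference reports on RNA integrity, gave −0.38 ± 0.06 and −0.76 ± 0.48 (SD, n = 3 each; exact permutation p = 0.1), with USP48 overexpression replicate 3 at −1.31. ACTB gave −3.46 ± 0.22 and −3.82 ± 0.35 by the same measure (n = 3 each, SD; exact permutation test, p = 0.2). The 24 poly-A controls, RNAs added before labelling, averaged 5.13 ± 0.13 and 5.55 ± 0.24 (log2, SD, n = 3 each; exact permutation p = 0.1). Without USP48 overexpression replicate 3, 19 of the 30 genes were called lower, against 13.6% of all genes. The median difference of the 30 genes was then −0.46, against −0.42 with all arrays. The part of these differences in the results was not tested. Of 8 measured hepatocyte markers 0 were called by limma (1 at an unadjusted p under 0.05), and in the empty vector arrays 3 of them lay above the median of every array (CYP3A4 at 5.84, TTR at 5.11 and TF at 4.30), while the albumin gene ALB was at 2.07 and APOA1 at 3.06. Of 5 epithelial markers 2 fell, EPCAM by 0.42 and CDH1 by 0.38 on the log2 scale. The keratins KRT8 and KRT18 were at 10.88 and 11.79 in the empty vector arrays, while KRT19 was at 2.81 and CDH1 at 2.95. Both group means of KRT19 and of CDH1 were below the median of every array. Of 5 mesenchymal markers FN1 rose by 1.48 and VIM and CDH2 fell by 0.42 and 0.65, and of 3 endothelial markers CDH5 fell by 0.42. Of 5 leukocyte markers CD2 rose by 0.29 (limma adjusted p = 0.036), PTPRC was at 1.96 and 1.88, and with the hybridization controls as the scale 0 were higher and 1 lower. The summed level of the leukocyte markers was 5.59 to 5.67 for the empty vector and 5.73 to 5.97 for the USP48-labelled group (log2). Of 5 fibroblast markers, 2 fell, DCN by 1.14 and LUM by 1.35 on the log2 scale, and their summed level was 8.80 to 8.91 and 8.10 to 8.24. The part of any other cell type in the results was not tested, and in RNA of whole cultures fewer cells of a type and less RNA per cell cannot be told apart.

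The synthesis enzymes were lower as a class. Of 18 measured enzymes, 14 fell, none rose and 4 did not pass (limma, against 14.1% of all genes called lower), and all 18 differences were negative, from −1.06 to −0.01 with a median of −0.52. The number called lower was 10 at an adjusted p under 0.01, and 11 to 13 with any 1 array left out. In the steps that start the pathway both genes fell. ACAT2, the cytosolic thiolase that joins acetyl-CoA units, was at 8.95, 9.06 and 9.04 on the empty vector arrays against 8.81, 8.68 and 8.61 on the USP48-labelled ones. Its groups were separated by a narrow gap, and the log2 difference was −0.31 (SE 0.09, adjusted p = 0.020). This call was lost when replicate 2 or 3 of either group was left out (adjusted p between 0.053 and 0.075). HMGCS1, which makes HMG-CoA, was at 8.32, 8.34 and 8.35 against 7.82, 7.59 and 8.05. The empty vector arrays were nearly equal while the USP48-labelled arrays spread widely (SD 0.02 and 0.23), and the difference was −0.51 (SE 0.11, limma adjusted p = 0.0059).

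Of the 6 enzymes that turn mevalonate into isoprenoids, 4 fell and 2 did not pass, against 14.1% of all genes called lower. The isomerase IDI1, which makes dimethylallyl diphosphate, had values of 8.60, 8.63 and 8.56 against 7.56, 7.74 and 7.97, a 1.79-fold decrease (log2 difference −0.84, SE 0.11, limma adjusted p = 0.00020). FDPS, the farnesyl diphosphate synthase, was at 10.01, 10.30 and 10.12 against 9.48, 9.37 and 9.47, 1.63-fold lower (−0.70, SE 0.10, adjusted p = 0.00030). Neither gene's groups came near each other. GGPS1, which leads farnesyl diphosphate away from sterols to geranylgeranyl groups on proteins, fell less, by 0.38 on the log2 scale (SE 0.11, adjusted p = 0.021), and the phosphomevalonate kinase PMVK fell by 0.36 (SE 0.10, adjusted p = 0.016). The call of GGPS1 was lost when replicate 1 or 2 of the empty vector, or 1 or 3 of USP48 overexpression, was left out, and that of PMVK when replicate 1 or 2 of the empty vector, or 1 of USP48 overexpression, was (adjusted p between 0.051 and 0.087). The mevalonate kinase MVK and the decarboxylase MVD did not pass. MVK was at 7.37 ± 0.09 and 7.28 ± 0.06 (SD, n = 3 each), a difference of −0.09 with a 95% interval of −0.28 to 0.10. MVD was at 4.46 ± 0.11 and 4.46 ± 0.19 (SD, n = 3 each), with an interval of −0.25 to 0.24. The groups overlapped for both.

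By the brightest probe set of each gene, the largest decrease among the members was that of SQLE. SQLE, the epoxidase that performs the first oxygen-dependent step, was at 8.57, 8.59 and 8.47 with the empty vector and at 7.53, 7.31 and 7.60 under the USP48 label. Every USP48-labelled array was below the lowest empty vector array by a wide margin. The log2 difference was −1.06, 2.09-fold lower (SE 0.10, limma adjusted p = 2.1e-05). LSS, which closes the rings to form lanosterol, was at 7.60, 7.88 and 7.59 against 7.01, 7.06 and 7.21, a difference of −0.60 (SE 0.10, adjusted p = 0.0014).

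From lanosterol to cholesterol, 6 of 8 measured enzymes fell and 2 did not pass, against 14.1% of all genes called lower. DHCR7, the reductase of the last step from 7-dehydrocholesterol, was at 8.49, 8.81 and 8.60 against 7.72, 7.71 and 7.99, 1.77-fold lower (log2 difference −0.83, SE 0.11, limma adjusted p = 0.00030). EBP, the sterol isomerase, was at 10.98, 11.06 and 10.83 against 10.30, 10.26 and 10.14 and fell 1.65-fold (−0.73, SE 0.09, adjusted p = 0.00019). In both genes the highest USP48-labelled array lay well below the lowest empty vector array. Of the enzymes that remove the methyl groups at carbon 4, HSD17B7 fell by 0.59 (SE 0.08, adjusted p = 0.00039) and MSMO1 by 0.54 (SE 0.13, adjusted p = 0.012), both on the log2 scale, while NSDHL was at −0.14 with a 95% interval of −0.35 to 0.07. The probe sets of HSD17B7 and IDI1 carry the suffix for possible cross-hybridisation, so the values may include related transcripts. The pair of sterol C14 reductases both fell: LBR, which is also a protein of the inner nuclear membrane, went from 9.27 ± 0.03 to 8.76 ± 0.11, and TM7SF2 from 5.86 ± 0.06 to 5.42 ± 0.10 (log2, SD, n = 3 each). The limma adjusted p was 0.0013 for LBR and 0.0033 for TM7SF2. SC5D, the C5 desaturase, was at 7.92, 7.83 and 7.84 against 7.79, 7.44 and 8.22. Its USP48-labelled arrays lay on both sides of the empty vector arrays, and the interval of its difference, −0.40 to 0.31, was the widest of the class.

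**Figure D2:**
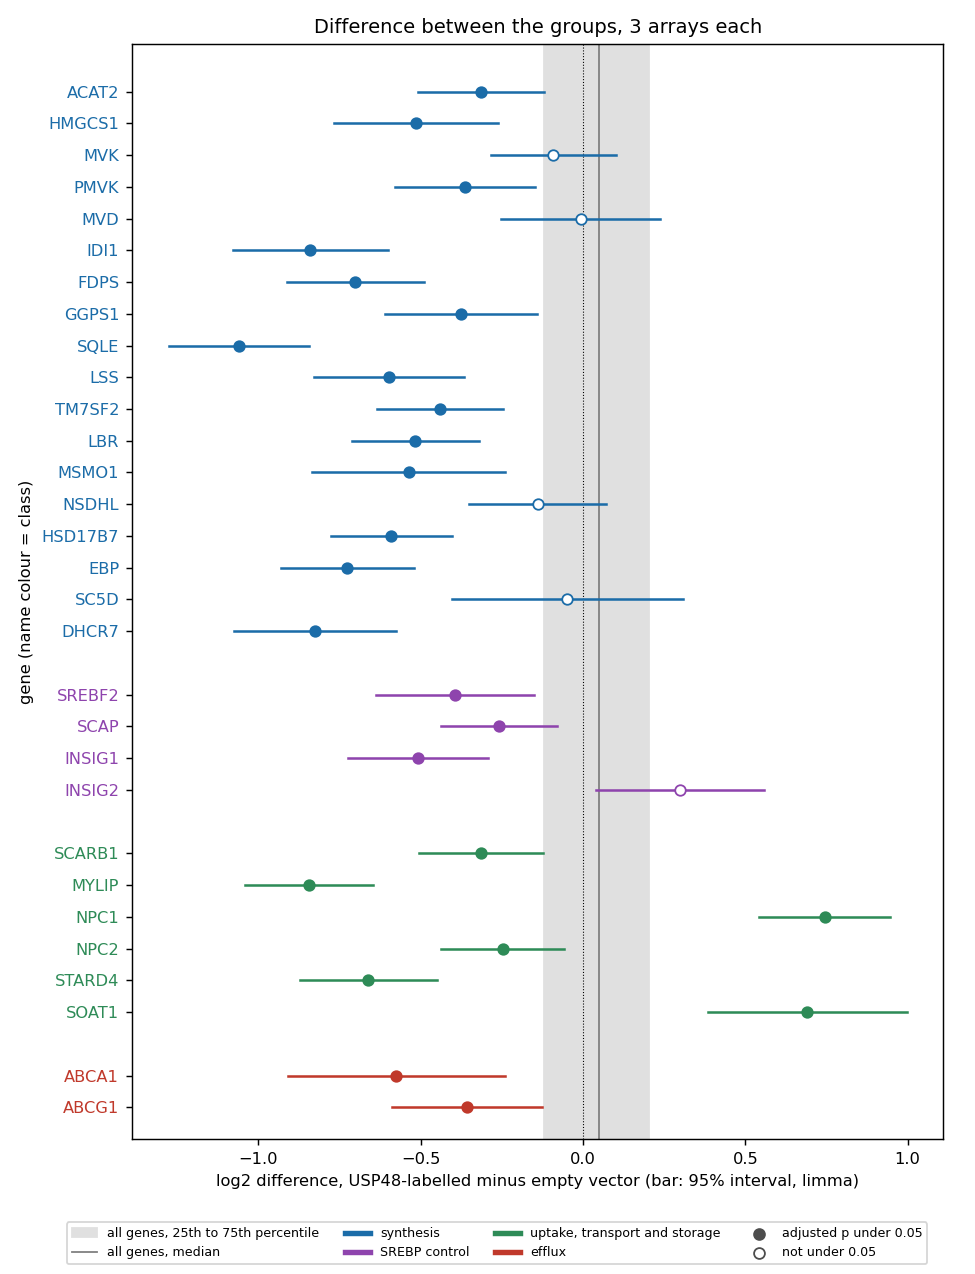
Log2 difference of each gene, USP48-labelled minus empty vector, with its 95% interval from limma (not adjusted for the number of genes); filled circles passed the test, and the grey band spans the 25th to 75th percentile of all genes. SQLE at −1.06 is the lowest and NPC1 at 0.74 the highest, and 14 of the 18 synthesis enzymes are filled and to the left of 0.

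The SREBP control genes were lower except for INSIG2. Of 4 genes, 3 fell and 1 did not pass (14.1% of all genes were called lower), with a median of −0.33. Without empty vector replicate 2, or without USP48 overexpression replicate 1, INSIG1 alone was called. INSIG1, the sterol-dependent anchor of SCAP and itself a target of SREBP, was at 7.67, 7.85 and 7.68 against 7.15, 7.14 and 7.37 by its brightest probe set, which is −0.51 on the log2 scale (SE 0.10, limma adjusted p = 0.0026). Its other probe sets differed more: 201626_at was at 7.88, 7.76 and 7.81 against 6.13, 5.94 and 6.66, a difference of −1.57 (adjusted p = 4.6e-05 over all probe sets), and 201627_s_at lay between them. In the empty vector arrays 201626_at had a mean of 7.82, above the 7.73 of the brightest, which was chosen on the mean over all arrays. All 3 INSIG1 probe sets fell, and the mean over them was −1.03. SREBF2, which encodes SREBP2, was at 6.53, 6.75 and 6.64 against 6.05, 6.26 and 6.42. Its groups did not overlap, the difference was −0.39 (SE 0.11, limma adjusted p = 0.020), and its other probe sets were at −0.31 and −0.55, both called. The call of SREBF2 was lost when replicate 2 or 3 of the empty vector, or 1 of USP48 overexpression, was left out (adjusted p between 0.056 and 0.084). SCAP fell by 0.26 on the log2 scale (SE 0.08, adjusted p = 0.034). SCAP lost its call with any 1 of 4 arrays left out, the lowest of these p being 0.064 and the highest 0.112, and with p adjusted over every probe set (adjusted p = 0.054). INSIG2, the anchor that is not a target of SREBP, was at 4.86, 4.96 and 4.55 against 4.97, 5.07 and 5.22. All USP48-labelled arrays were higher, by a very small margin, and the difference of 0.30 (SE 0.12) did not pass (limma adjusted p = 0.082); it passed after quantile normalization (0.35, adjusted p = 0.039) and was 0.0041 with the hybridization controls as the scale. Whether INSIG1 and INSIG2 differ in their change was not tested.

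The 6 genes of uptake, transport and storage all passed the test, in both directions, with 4 lower and 2 higher. Over all genes 29.8% were called, 14.1% lower and 15.7% higher. MYLIP, the liver X receptor target that marks lipoprotein receptors for degradation, was at 6.41, 6.52 and 6.43 against 5.51, 5.73 and 5.59, with a wide gap between the groups. It fell 1.80-fold (log2 difference −0.84, SE 0.09, limma adjusted p = 5.3e-05), and 5 of its 6 probe sets were called lower. SCARB1, the receptor for selective uptake from high-density lipoprotein, fell from 8.29 ± 0.11 to 7.97 ± 0.02 (log2, SD, n = 3 each; limma adjusted p = 0.019). Its call was lost without empty vector replicate 2 or USP48 overexpression replicate 1 (adjusted p = 0.084 and 0.053).

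Among the genes of transport inside the cell, STARD4 fell and NPC1 rose. STARD4, a cytosolic sterol carrier and SREBP2 target, was at 6.48, 6.49 and 6.56 against 5.69, 5.86 and 5.99, 1.58-fold lower (log2 difference −0.66, SE 0.10, limma adjusted p = 0.00042). NPC1, the membrane protein that exports cholesterol from lysosomes, was at 8.61, 8.80 and 8.63 against 9.35, 9.41 and 9.51, 1.67-fold higher (0.74, SE 0.09, adjusted p = 0.00014). Its groups were far apart on this probe set, whereas its 3 dimmer probe sets were at −0.19, −0.23 and 0.20 and none was called. When its probe sets were averaged the difference was 0.13 (adjusted p = 0.28), and with the hybridization controls as the scale it was 0.45 (adjusted p = 0.0036). NPC2, the soluble partner of NPC1, was at 10.63 ± 0.07 and 10.39 ± 0.07 (log2, SD, n = 3 each), a difference of −0.25 at the edge of the threshold (limma adjusted p = 0.0498). It lost its call with any 1 of the 6 arrays left out (adjusted p from 0.059 to 0.165), with median centring and with p adjusted over every probe set.

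SOAT1, which esterifies cholesterol for storage, gave opposite answers by probe set. The brightest, 221561_at, was at 7.82, 7.47 and 7.74 against 8.67, 8.19 and 8.24, a rise of 0.69 on the log2 scale (SE 0.14, limma adjusted p = 0.0034). The next, 228479_at, was at 6.48, 6.31 and 6.34 against 4.91, 5.10 and 5.04, a fall of 1.36 (adjusted p = 5.7e-06 over all probe sets). On each probe set the groups were clearly apart, in opposite directions, and the mean of all SOAT1 probe sets was −0.25 (adjusted p = 0.026). SOAT1 was the only member with probe sets called in both directions, and with the hybridization controls as the scale the rise of its brightest probe set was 0.40 (adjusted p = 0.053). The sources used here do not say which SOAT1 transcripts each probe set reports.

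Both efflux transporters fell, ABCG1 on all of its probe sets and ABCA1 on 1 of 4. Of all genes 14.1%, and of all probe sets 13.8%, were called lower. ABCG1, which passes cholesterol to high-density lipoprotein, was at 6.07, 6.44 and 6.24 against 5.90, 5.94 and 5.82, which is −0.36 on the log2 scale (SE 0.10, limma adjusted p = 0.025). Its other probe sets were at −0.46, −0.61 and −0.64, the last 2 on values below the median of every array, and the mean over all was −0.52 (adjusted p = 0.0048). The brightest probe set lost its call after quantile normalization (adjusted p = 0.068) and without any 1 of 4 arrays, namely empty vector replicates 2 and 3 and USP48 overexpression replicates 1 and 3 (adjusted p = 0.060 to 0.104). ABCA1, which loads cholesterol onto lipid-poor apolipoprotein, was at 3.53, 4.08 and 3.45 against 3.00, 3.24 and 3.10. On all 4 ABCA1 probe sets both group means were below the median of every array. Detection was not analysed here, so the size of a difference between such dim values is uncertain. The difference was −0.58 (SE 0.15, adjusted p = 0.015), and it was lost without USP48 overexpression replicate 1 (adjusted p = 0.058) and when its probe sets were averaged (−0.20, adjusted p = 0.169).

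**Figure D3:**
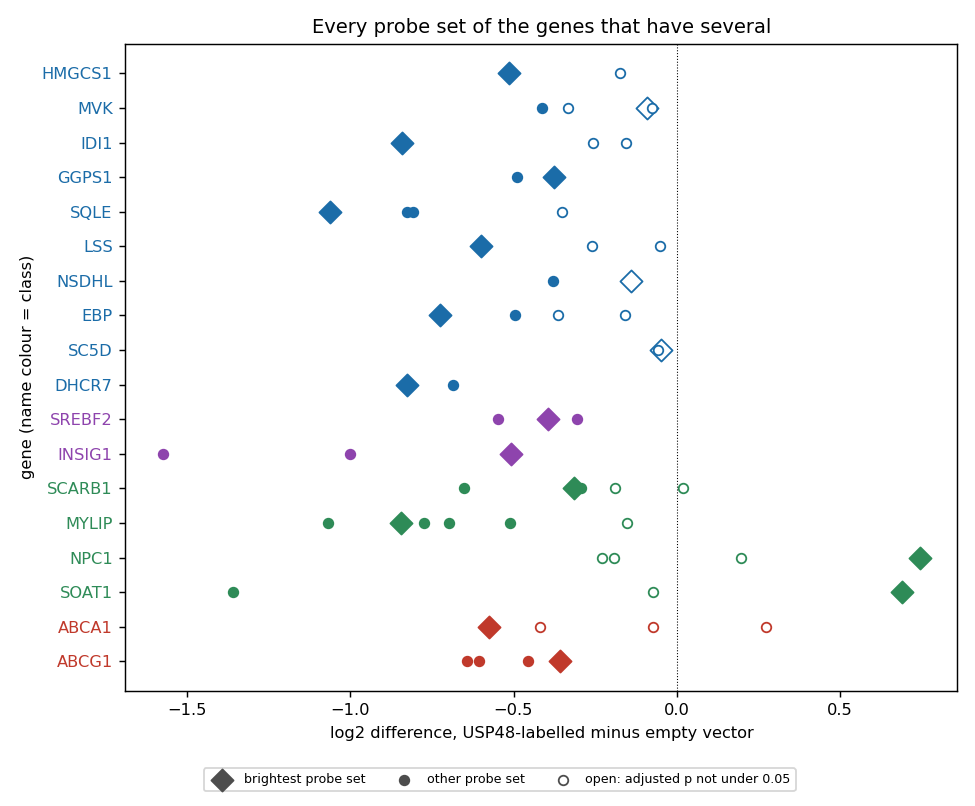
Log2 difference of every probe set of the 18 genes that have several, USP48-labelled minus empty vector; diamonds mark the brightest probe set, which stood for the gene, and filled symbols passed the test over all probe sets. The 3 INSIG1 probe sets lie between −1.57 and −0.51, and SOAT1 has filled symbols on both sides of 0.

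Over all 73 probe sets of the 30 genes, 43 were called lower, 2 higher and 28 not called, against 13.8% lower and 10.6% higher of the 54613 probe sets tested. All 37 probe sets of the synthesis enzymes had a negative difference and 22 were called. Of the enzymes not called by the brightest probe set, MVK had another at −0.41 (limma adjusted p = 0.0089 over all probe sets) and NSDHL another at −0.38 (adjusted p = 0.034). Of the enzymes that were called, HMGCS1 had a dimmer probe set at −0.17 (adjusted p = 0.20) and LSS dimmer ones at −0.05 and −0.26, none of them called. EBP, IDI1 and SQLE each had dimmer probe sets of both kinds, called lower and not called. Of the 43 probe sets that did not stand for a gene, 6 had a sign opposite to the one that did.

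Within the USP48-labelled group the arrays were not alike in these genes. USP48 overexpression replicate 3 was the highest of its group for 15 of the 30 genes, against 33.1% of all genes. The median of the synthesis enzymes relative to the empty vector mean was −0.53, −0.64 and −0.46 on USP48 overexpression replicates 1, 2 and 3. HMGCS1, MSMO1 and SC5D had their highest USP48-labelled value on replicate 3 and their lowest on replicate 2. In the control group, empty vector replicate 2 was the highest for 23 of the 30 genes, against 35.9% of all genes. Its median relative to the empty vector mean was 0.07, against a median difference of −0.42 between groups. Without empty vector replicate 2 that median difference was −0.37. The number of members called lower was then 15, against 23 with every array, and that of all genes 2179, against 2794.

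Genes next to the pathway were counted on lists chosen with earlier results known. Over all genes, 14.1% were called lower and 15.7% higher. With the hybridization controls as the scale, these shares were 37.9% and 4.84%. Of 6 measured genes of SREBP activation and sterol-regulated degradation, 2 fell and none rose: SREBF1, which encodes SREBP1, by 0.80 (limma adjusted p = 0.00020) and the site-2 protease MBTPS2, which frees the SREBP fragment, by 0.38 on the log2 scale (adjusted p = 0.031). With the hybridization controls as the scale all 6 were called lower, with a median of −0.50. Of 9 measured SREBP1 targets of fatty acid synthesis, 7 fell and none rose, with a median of −0.85 and the desaturase SCD at −2.08, ACACA at −1.25 and FASN at −1.11. Of 11 genes of the nonsterol isoprenoid branch, 5 fell and 2 rose, with a median of 0.11, which turned to −0.18 with the hybridization controls as the scale, where 5 were called lower and 0 higher. The coenzyme Q side-chain synthase subunits PDSS2 and PDSS1 were at −0.77 and −0.66, and FNTB, a farnesyltransferase subunit, at −1.14 on a probe set below the median of every array.

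Of 6 measured liver X receptor genes and further targets, 2 fell and none rose, with a median of −0.07 (14.1% lower and 15.7% higher over all genes). In the empty vector arrays 4 of the 6 had means above the median of every array, and the others lay below it. The phospholipid-remodelling enzyme LPCAT3 was at −0.38 (limma adjusted p = 0.046) with overlapping groups, and RXRA, a partner of these receptors, at −0.34 (adjusted p = 0.022). With the hybridization controls as the scale, 3 of the 6 were called lower and 0 higher, with a median of −0.36. Of 7 lipoprotein and scavenger receptors, none fell and 2 rose, OLR1 by 0.97 (adjusted p = 0.0014), from an empty vector mean of 3.67 that is below the median of every array, and VLDLR by 0.59 (adjusted p = 0.012). On the scale of the hybridization controls 2 of the 7 were called lower and 1 higher, against 37.9% and 4.84% of all genes. Of 11 genes of sterol transport and ester turnover, 2 fell and 3 rose, with NCEH1, a cholesteryl ester hydrolase, at 0.47, the caveolar protein CAV1 at −0.47 and GRAMD1B, a carrier of sterol from the plasma membrane, at −0.36; on the other scale 4 were called lower and 0 higher. Of 5 oxysterol and bile acid enzymes 0 were called (limma; 0 at an unadjusted p under 0.05; differences from −0.09 to 0.19), 1 was called lower on the scale of the hybridization controls, and 4 had empty vector means below the median of every array.

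**Figure D4:**
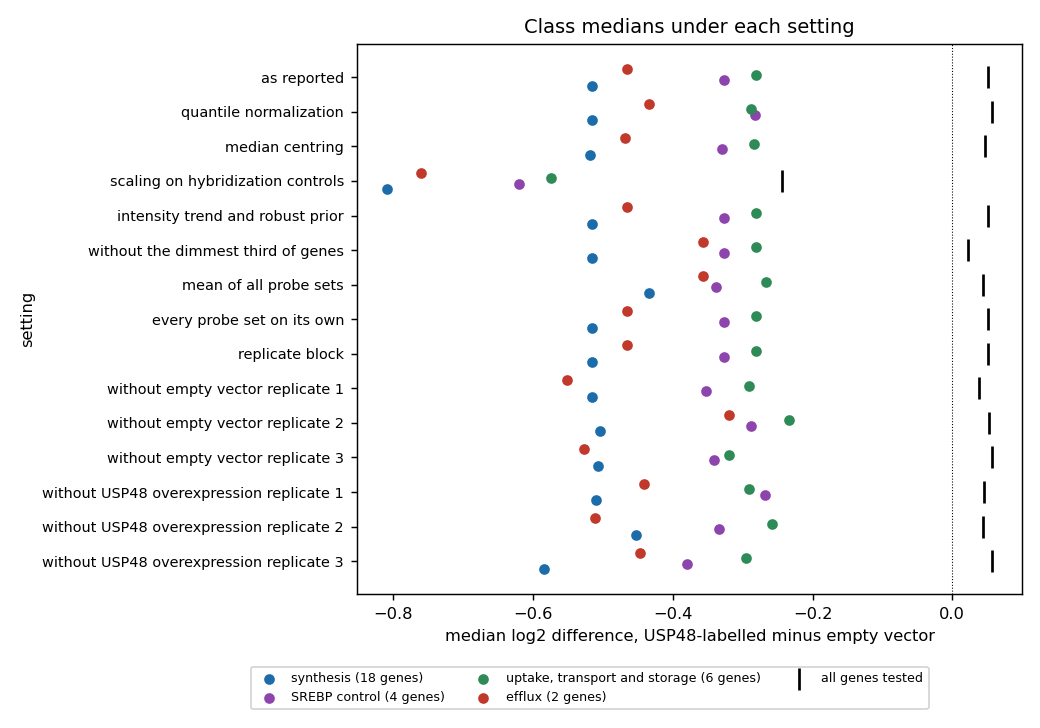
Median log2 difference of each class under every setting of the fit, USP48-labelled minus empty vector; coloured points are the 4 classes and black bars the median of all genes tested. The synthesis median lies between −0.81 and −0.43 and stays below the median of all genes under each of the 15 settings drawn.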

How the data were processed

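The deposited values are log2 values, 1 for each of 54675 probe sets and 6 arrays, for which the submitters' processing notes name RMA, without version or settings. They ran from 0.190 to 13.2, with array medians of 3.75 to 3.79, and since RMA seldom gives values below 1, a different background correction is possible. Such values do not show a change of total RNA per cell. Detection was not analysed here. Of the probe sets, 41091 named 1 gene symbol in the platform annotation, 1801 several, 11721 none and 62 were controls. By gene ID 41037 matched RefSeq (GRCh38.p14).

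Genes were represented by the brightest probe set and compared with limma 3.58.1 in R 4.3.3 (two-sided, Benjamini-Hochberg over 19775 genes, threshold 0.05, no filter, no further normalization), which was checked on simulated data. The number of arrays limits the precision. Control measures were compared by exact permutation. All members are named; of each neighbouring list up to 3 called genes with the largest difference. The members and lists were chosen with earlier results of these data known, and the letters of the promoter motifs after the values were seen. The labels do not say that equal replicate numbers mark pairs, and the main fit assumed no pairing. The deviations of same-numbered arrays correlated at 0.004, 0.166 and 0.015 across genes, and those of differently numbered arrays at −0.12 to 0.11. With 3 arrays per group these values cannot decide whether arrays were paired. Alternatives were quantile normalization, median centring, scaling on hybridization controls, an intensity trend, leaving out the dimmest 33.3% of genes, the mean of all probe sets, every probe set alone, a replicate block, each array left out and a threshold of 0.01. Figures were drawn with matplotlib 3.10.9.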

Additional observations from a re-analysis of the deposited data

How the results depend on the processing

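Of the 23 genes called lower, 14 kept that call under all of the 14 other fits in which they were tested, 11 of them synthesis enzymes; the calls of NPC1 and SOAT1 did not hold under all of them. Scaling on the hybridization controls lowered the class medians by construction, to −0.71 for all members, −0.81 for synthesis, −0.62 for SREBP control, −0.58 for uptake, transport and storage and −0.76 for efflux, and left 1 member called higher. With the mean of all probe sets 0 members were called higher, the synthesis median was −0.43, and SOAT1 turned to −0.25; 2720 genes in all were called higher by that limma fit. The number of efflux genes called was 1 after quantile normalization, without the dimmest 33.3% of genes, where ABCA1 was not tested, and with the mean of all probe sets. At an adjusted p under 0.01, 3847 of all 19775 genes passed in limma, counted in either direction. Of the members, 13 were then called lower and 2 higher, and 1 SREBP control gene and 0 efflux genes passed. With every probe set tested alone, 13287 were called at an adjusted p under 0.05. With 1 array left out, members called lower ranged from 15 to 20 and synthesis enzymes from 11 to 13. SREBP control genes called ranged from 1 to 3, uptake, transport and storage genes from 4 to 5, and efflux genes from 0 to 2. The number of all genes called lower ranged from 2179 to 2689 in the same fits, against 2794 with every array. MVD turned positive after quantile normalization (0.025) and ranged from −0.11 to 0.083 with 1 array left out, and SC5D reached 0.14 without USP48 overexpression replicate 2. With the replicate block, 5824 genes were called, among them 21 members lower and 2 higher; the calls of SCAP and NPC2 were lost (adjusted p = 0.051 and 0.074) and no other call of a member changed. The cause of these changes was otherwise not tested.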
